A study of Mus musculus with 7 samples.

Results

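The core replication-dependent histone genes are the multicopy genes that encode the H2A, H2B, H3 and H4 proteins of the nucleosome. They were chosen here by name, as symbols of the Hist1 to Hist4 families for H2A, H2B, H3 or H4 that had a single entry in the H3K27me3 gene-body count files. The rule found 55 of 23366 symbols: 14 H2A, 17 H2B, 12 H3 and 12 H4 genes, of which 43 carry Hist1 names, 8 Hist2, 3 Hist3 and 1 Hist4. A further 7 symbols of the families had 2 entries each and were left out; together they held few reads, the highest being Hist1h4n with 2 reads at postnatal day 12 (P12) and 9 at postnatal day 17 (P17). The symbols in use now (H4c4 for Hist1h4d, for example) were found for all 55 in the RefSeq gene table.

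The 2 groups used are H3K27me3 chromatin immunoprecipitation and sequencing from wild-type CD1 mouse spermatocytes at P12, 1 library, and at P17, 1 file that pools 2 replicates. The cells came from digested testes fractionated on Percoll. The P12 file held 13462873 counted reads and the P17 file 26664736. With 1 file per stage there is no replicate error: every interval is an exact 95% interval that covers counting error only, no p-value was computed, and a difference between the files cannot be told apart from a difference between stages. Input was not analysed here, and the mark over a gene does not measure its expression, so the labelled cell type could not be checked from it. H3K27me3 summed over marker genes of other testis cells stood at 338 CPM (reads per 1000000 counted) at P12 and 482 at P17 for 8 of 9 Sertoli genes found, with a median log2 ratio P17/P12 of 0.54. It stood at 94.0 and 99.2 CPM for 6 Leydig genes, with a median of 0.02, and at 228 and 202 CPM for 8 spermatocyte genes, with a median of -0.30. The part of cell composition in the histone values was not tested.

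Histone proteins package newly copied DNA, and replication-dependent histone genes are transcribed in S phase to supply them. Their genes are short and mostly without introns, and their mRNAs end in a stem-loop bound by Slbp in place of a poly(A) tail. H2A and H2B genes often lie head to head, sharing the DNA between their starts. H3K27me3 is placed by Polycomb repressive complex 2 and marks repressed chromatin. Copies of a family are nearly identical, so reads can be assigned to the wrong copy or lost; sums over a family depend less on that assignment than values of single genes.

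The stretches below were picked by the ratios of their genes and not by their weight in the sums. They lie at 2 neighbouring H2A and H2B pairs with high P17/P12 ratios, 1 nearby pair with a low ratio, and the 3 Hist1 H4 genes with the highest ratios among those with at least 20 reads over both files. Each is from RefSeq promoter sequence of GRCm38.p6, whose coordinates are given for the sequence only, since mm9 is the build named in the submitters' processing notes. Capitals mark, on either strand, the core promoter motif TATAAA, the box CCAAT known to be bound by NF-Y, the octamer ATTTGCAT known from H2B promoters, and GGTCCG, which was chosen after the sequences had been seen. The first 3 are the DNA between the starts of a head-to-head H2A and H2B pair on chromosome 13, plus strand: Hist1h2ai with Hist1h2bl (chr13:21716184-21716411), Hist1h2ak with Hist1h2bn (chr13:21753913-21754075) and Hist1h2an with Hist1h2bp (chr13:21787249-21787487).
Hist1h2ai and Hist1h2bl: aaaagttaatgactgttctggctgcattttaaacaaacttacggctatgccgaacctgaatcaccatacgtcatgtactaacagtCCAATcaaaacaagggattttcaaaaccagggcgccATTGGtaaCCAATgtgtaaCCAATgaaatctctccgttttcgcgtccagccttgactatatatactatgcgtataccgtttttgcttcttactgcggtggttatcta
Hist1h2ak and Hist1h2bn: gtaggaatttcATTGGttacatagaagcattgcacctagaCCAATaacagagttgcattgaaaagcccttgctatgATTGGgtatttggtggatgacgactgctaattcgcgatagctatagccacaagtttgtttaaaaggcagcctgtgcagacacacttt
Hist1h2an and Hist1h2bp: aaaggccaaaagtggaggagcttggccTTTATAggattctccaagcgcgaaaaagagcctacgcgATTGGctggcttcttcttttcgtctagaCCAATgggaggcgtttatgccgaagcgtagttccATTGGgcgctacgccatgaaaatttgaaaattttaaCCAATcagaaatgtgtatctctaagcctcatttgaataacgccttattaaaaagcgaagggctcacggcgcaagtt
The other 3 are the 250 bases before the start of the H4 genes Hist1h4d (chr13:23581318-23581567, plus strand), Hist1h4j (chr13:21734784-21735033, plus strand) and Hist1h4k (chr13:21750554-21750803, minus strand).
Hist1h4d: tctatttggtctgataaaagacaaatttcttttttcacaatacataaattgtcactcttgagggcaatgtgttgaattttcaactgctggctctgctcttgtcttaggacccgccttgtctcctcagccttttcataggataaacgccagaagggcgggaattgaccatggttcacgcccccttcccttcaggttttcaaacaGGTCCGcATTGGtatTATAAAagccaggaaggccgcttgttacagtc
Hist1h4j: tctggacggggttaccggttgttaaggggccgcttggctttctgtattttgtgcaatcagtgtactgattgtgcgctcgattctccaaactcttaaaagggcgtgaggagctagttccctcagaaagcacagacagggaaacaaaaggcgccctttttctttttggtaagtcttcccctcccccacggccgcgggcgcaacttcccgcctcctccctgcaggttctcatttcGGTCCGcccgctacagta
Hist1h4k: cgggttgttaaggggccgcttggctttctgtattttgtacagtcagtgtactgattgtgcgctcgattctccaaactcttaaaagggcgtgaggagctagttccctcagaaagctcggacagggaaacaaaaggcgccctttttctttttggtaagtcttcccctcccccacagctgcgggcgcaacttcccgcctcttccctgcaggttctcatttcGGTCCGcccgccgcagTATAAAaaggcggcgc
Hist1h4j and Hist1h4k shared an unbroken run of 72 bases, so these copies are alike outside their coding parts too, which need not hold for other members. Hist2h3c1 and Hist2h3c2 shared a run of 231 bases.

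Summed over all 55 genes, H3K27me3 reads numbered 974 at P12 and 2869 at P17, that is 72.3 and 108 CPM, a log2 ratio of 0.57 (0.47 to 0.68) or 1.49-fold. Across the 21808 genes with at least 20 reads the median log2 ratio was -0.08, and the 10th and 90th percentiles were -0.34 and 0.47. Single genes had few reads: from 0 to 423 at P12 with a median of 5, and from 0 to 967 at P17 with a median of 22. CPM was higher at P17 in 41 of the 55, lower in 13 and 0 at both stages in Hist1h4m; among all genes with a read, 38.9% had the higher CPM at P17. Hist1h2be, an H2B gene, alone held 43.4% of the family's P12 reads, and without it the log2 ratio of the sum was 0.80 (0.66 to 0.94).

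**Figure D1:**
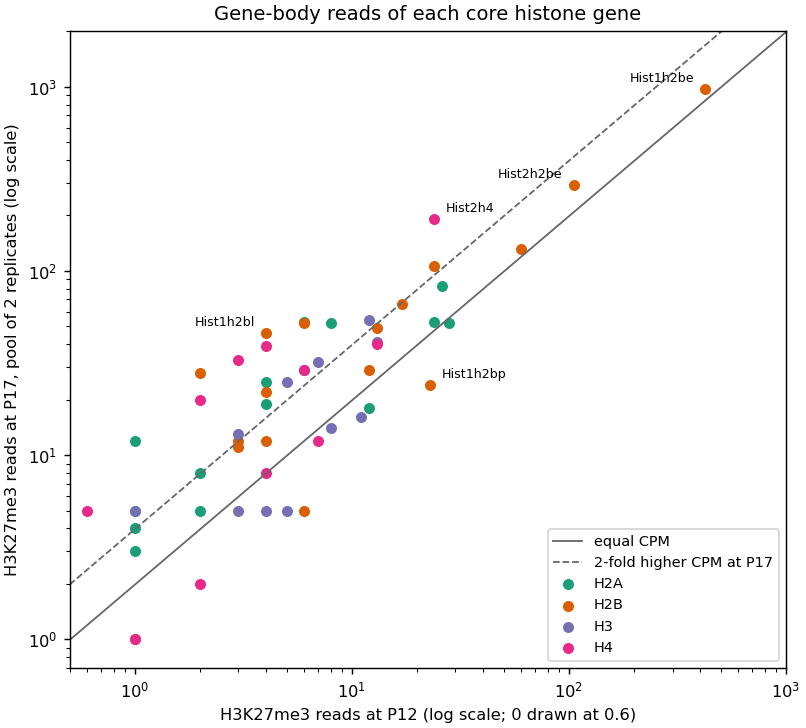
H3K27me3 reads over each core histone gene at P12 (x) and P17 (y), both on log axes; each point is 1 gene, coloured by histone type, the solid line is equal CPM and the dashed line 2-fold higher CPM at P17. Most points lie above the solid line, and Hist1h2be stands far to the right with 423 and 967 reads. Hist1h4b, with 0 reads at P12, is drawn at 0.6, and Hist1h4m, with 0 reads at both stages, is not drawn.

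Of the 55 genes, 33 had at least 20 reads over both files. Among these, 13 were over 2-fold higher at P17 with an interval excluding a ratio of 1, against 2.57% of all genes by the same rule, and 0 were over 2-fold lower, against 0.335%. Intervals of 21 lay wholly above the all-gene median and of 0 below it (21.2% and 10.1% of all genes). Since P17 has more reads, some of the 33 reached the minimum through P17 alone, so these counts are a description and no support. Of the 17 members with at least 10 reads at P12, a choice that leans the other way and was added later, 3 were over 2-fold higher (2.41% of all genes with as many P12 reads): Hist1h3e, Hist2h4 and Hist3h2ba. The median log2 ratio was 1.14 over the 33 and 0.49 over the 17. By total reads, 11 of 27 members with 20 to 99 reads were over 2-fold higher (2.36% of all such genes) and 2 of 6 with at least 100 reads (2.61%), the 2 being Hist2h4 and Hist3h2ba. The 22 genes under the minimum summed to 55 and 139 reads, a log2 ratio of 0.35 (-0.11 to 0.83).

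**Figure D2:**
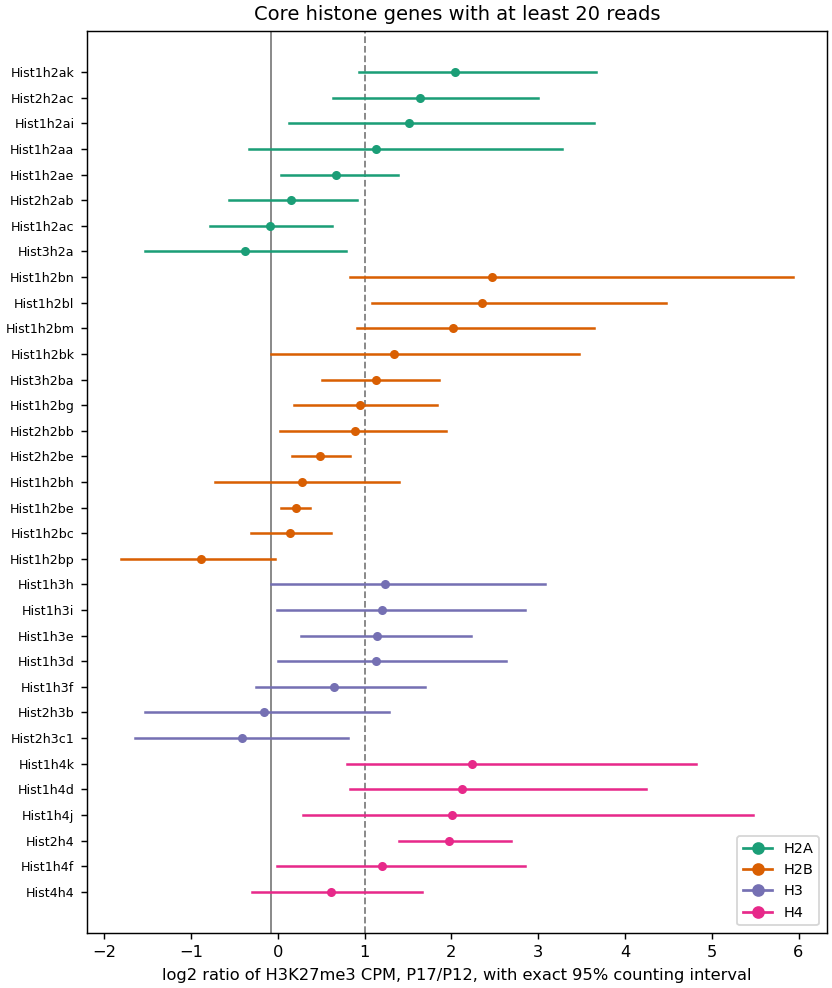
Log2 ratio P17/P12 of H3K27me3 CPM (x) for the 33 core histone genes with at least 20 reads, grouped by histone type; points are ratios, bars exact 95% counting intervals, the solid line the all-gene median of -0.08 and the dashed line a 2-fold higher CPM. The 6 H4 genes drawn lie to the right of the solid line, from 0.61 to 2.24, and H4 genes under the minimum are not drawn. Hist1h2bp is alone at -0.89.

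H4 and H3 form the tetramer at the centre of the nucleosome. H4 genes had the highest summed ratio of the 4 types. Their 12 genes went from 66 to 380 reads, 4.90 to 14.3 CPM, a log2 ratio of 1.54 (1.16 to 1.94) or 2.91-fold. The interval did not overlap those of H2A, H2B or H3 below. Hist2h4 decided part of this: with 24 reads at P12 and 191 at P17, it had a log2 ratio of 1.98 (1.39 to 2.68), from 1.78 to 7.16 CPM, and held 50.3% of the H4 reads at P17. Without it the H4 sum stood at 1.18 (0.70 to 1.70), which overlaps the intervals of H2A and H3.

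Among the other H4 genes, Hist1h4k had 3 and 33 reads, a log2 ratio of 2.24 (0.80 to 4.82). Hist1h4d had 4 and 39 reads, at 2.12 (0.83 to 4.25). Hist1h4j had 2 and 20 reads, at 2.01 (0.29 to 5.48). These 3, which passed the read minimum mostly through P17, are the H4 genes whose sequences are printed above. Each holds GGTCCG once. The lowest H4 ratios above the minimum were those of Hist1h4f, with 6 and 29 reads at 1.20 (-0.01 to 2.85), and of Hist4h4, the single Hist4 gene, with 13 and 40 reads at 0.61 (-0.30 to 1.66). Of the 6 H4 genes under the minimum, none had more than 7 reads at P12 or 12 at P17. Hist1h4b had 0 and 5, at 2.25, and Hist1h4h had 4 and 8, at 0.01. Hist1h4i, Hist1h4c and Hist1h4a stood below 0, at -0.19, -0.51 and -0.67, and Hist1h4m had 0 reads at both stages. The intervals of the genes with reads all include 0. The ratios of single H4 genes thus spread widely, but the intervals of Hist1h4f and Hist4h4 overlap those of the higher genes.

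H3 is the histone that itself carries the K27 methylation measured here, though the values describe chromatin over its genes and not the protein. The 12 H3 genes went from 78 to 244 reads, 5.79 to 9.15 CPM, a log2 ratio of 0.66 (0.29 to 1.05). Hist1h3h had 5 and 25 reads, at 1.23 (-0.08 to 3.08), and Hist1h3i had 6 and 29, at 1.20 (-0.01 to 2.85). Hist1h3e, with the most P17 reads, had 12 and 54, at 1.14 (0.26 to 2.22). Below it came Hist1h3d, with 7 and 32 reads at 1.13 (0.00 to 2.63), and Hist1h3f, with 13 and 41 reads at 0.64 (-0.26 to 1.70). Of these 5 Hist1 genes, which passed the read minimum mostly through P17, Hist1h3e and Hist1h3d were over 2-fold higher with an interval above 0, that of Hist1h3d only just. The 4 Hist1 H3 genes under the minimum had 5 reads each at P17. At P12 Hist1h3a had 5, Hist1h3g 4, Hist1h3c 3 and Hist1h3b 1, and their log2 ratios were -0.83, -0.55, -0.20 and 0.94 in that order, so 3 of the 9 Hist1 H3 genes stood below 0.

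Among the Hist2 H3 genes, Hist2h3b had 8 and 14 reads, at -0.16 (-1.53 to 1.28). Hist2h3c1 had 11 and 16 reads, at -0.42 (-1.64 to 0.81), and Hist2h3c2, under the read minimum, had 3 and 13, at 0.98 (-0.73 to 3.58). The last pair are near-identical copies, and the 3 together had 22 and 43 reads, a log2 ratio of -0.02 (-0.79 to 0.79). The 9 Hist1 H3 genes summed to 56 and 201 reads, at 0.86 (0.42 to 1.31), an interval that overlaps the Hist2 one.

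H2A and H2B form the dimers that flank the tetramer. The 14 H2A genes went from 120 to 392 reads, 8.91 to 14.7 CPM, a log2 ratio of 0.72 (0.42 to 1.03). Among the 8 with at least 20 reads, Hist1h2ak stood highest, with 6 and 53 reads at 2.04 (0.94 to 3.67), followed by Hist2h2ac with 8 and 52 reads at 1.63 (0.63 to 3.0). Hist1h2ai had 4 and 25 reads, at 1.51 (0.12 to 3.64). In the same cluster as Hist2h2ac, Hist2h2ab had 24 and 53 reads and a ratio of 0.15 (-0.56 to 0.92). Hist1h2ae had the most P17 reads, 26 and 83, at 0.67 (0.04 to 1.38). Lowest were Hist1h2ac, with 28 and 52 reads at -0.09 (-0.78 to 0.62), and Hist3h2a, with 12 and 18 reads at -0.38 (-1.53 to 0.79). The 6 H2A genes under the minimum had 1 or 2 reads at P12 and 3 to 12 at P17.

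H2B genes had the most reads and the lowest summed ratio. The 17 genes went from 710 to 1853 reads, 52.7 to 69.5 CPM, a log2 ratio of 0.40 (0.27 to 0.52). Hist1h2be held 59.6% of the P12 reads of the type: with 423 and 967 reads its own ratio was 0.21 (0.04 to 0.38), and without it the H2B sum stood at 0.64 (0.45 to 0.84), beside 0.72 for H2A and 0.66 for H3. RefSeq lists 2 starts for Hist1h2be, with no other counted gene starting between them. These starts lie far apart: the 250 bases before them are chr13:23585971-23586220 and chr13:23621095-23621344 (GRCm38.p6, minus strand). Whether the reads of Hist1h2be lie over the span between its starts was not tested. The length counted for each gene is not stated, so levels are not compared between genes. Next in reads came Hist2h2be, with 105 and 292 reads at 0.49 (0.16 to 0.83), and Hist1h2bc, with 60 and 131 reads at 0.14 (-0.31 to 0.61). The 3 H2B genes with the most reads thus had ratios under 0.5.

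Among H2B genes with fewer reads the ratios spread widely. Hist1h2bn had 2 and 28 reads, a log2 ratio of 2.47 (0.83 to 5.94), the highest of all members above the minimum. Hist1h2bl had 4 and 46 reads, at 2.35 (1.08 to 4.47), and Hist1h2bm had 6 and 52, at 2.01 (0.91 to 3.64). All 3 lie in the same stretch of the Hist1 cluster, described below. Hist1h2bp, also in that stretch, had 23 and 24 reads, at -0.89 (-1.81 to -0.03), the single member of the 33 whose interval lay wholly under a ratio of 1. Its interval spans the all-gene median, and its upper end was 0.04 with TMM or median-of-ratios factors, so that a ratio of 1 was then included. Hist2h2bb had 13 and 49 reads, at 0.89 (0.02 to 1.94), and Hist3h2ba had 24 and 106, at 1.14 (0.51 to 1.86). The remaining genes past the minimum were Hist1h2bk with 4 and 22 reads at 1.33 (-0.08 to 3.47), Hist1h2bg with 17 and 66 at 0.94 (0.18 to 1.83) and Hist1h2bh with 12 and 29 at 0.27 (-0.73 to 1.39). The pseudogene Hist3h2bb-ps had 6 and 5 reads, and the other 4 genes under the minimum had 1 to 4 reads at P12 and 1 to 12 at P17.

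By cluster, the 43 Hist1 genes on chromosome 13 summed to 723 and 2020 reads, a log2 ratio of 0.50 (0.37 to 0.62), or 0.83 (0.64 to 1.02) without Hist1h2be. The 8 Hist2 genes on chromosome 3 summed to 196 and 680 reads, at 0.81 (0.58 to 1.05). This Hist2 value leans on its largest members in opposite ways: it was 1.11 (0.77 to 1.45) without Hist2h2be and 0.52 (0.27 to 0.78) without Hist2h4. The 3 Hist3 genes on chromosome 11 summed to 42 and 129 reads, at 0.63 (0.12 to 1.17), and rested on Hist3h2ba, without which the sum was -0.63 (-1.59 to 0.34). Hist4h4 lies on chromosome 6. The intervals of Hist1, Hist2 and Hist3 overlap with or without Hist1h2be.

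**Figure D3:**
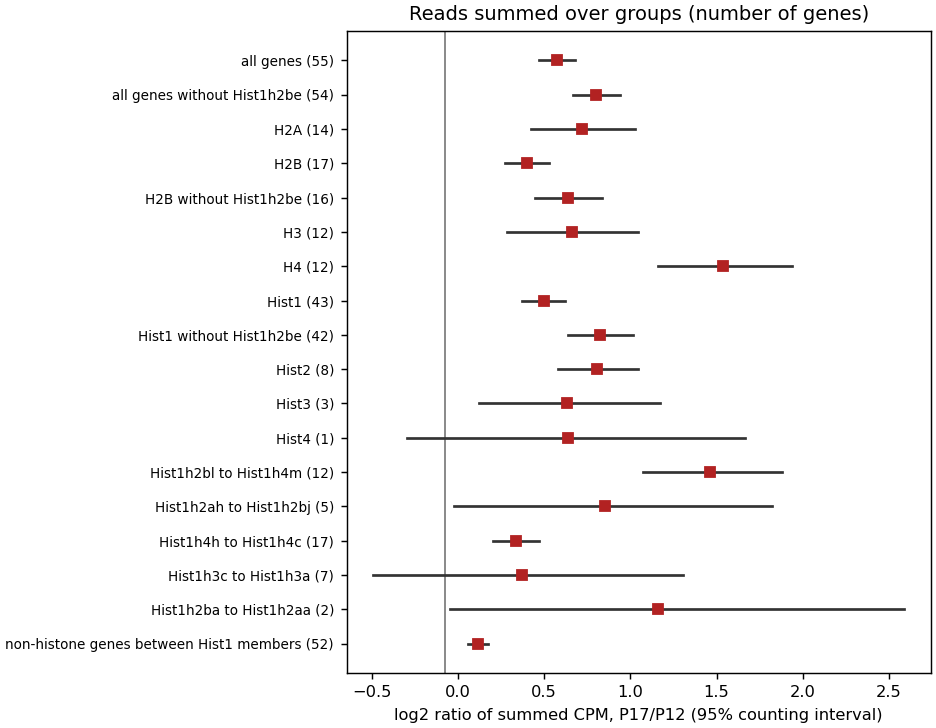
Log2 ratio P17/P12 of H3K27me3 CPM summed over groups of genes (x), with the number of genes in brackets; squares are ratios, bars exact 95% counting intervals and the line the all-gene median of -0.08. H4 and the Hist1 stretch from Hist1h2bl to Hist1h4m lie to the right, at 1.54 and 1.46, while the genes between the Hist1 members lie at 0.11.

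Within the Hist1 cluster the summed ratio of core genes differed between stretches. Gene order in the RefSeq table splits the 43 genes into 5 runs, separated by protein-coding genes that are not histone genes. The run from Hist1h2bl to Hist1h4m (12 members) went from 62 to 339 reads, a log2 ratio of 1.46 (1.07 to 1.88). The longest run, from Hist1h4h to Hist1h4c (17 members), went from 624 to 1559 reads, at 0.34 (0.20 to 0.47), or 0.57 (0.34 to 0.81) without Hist1h2be. These intervals do not overlap. The first run stood at 1.34 (0.93 to 1.78) without its 3 H4 genes. The H4 genes outside it stood at 1.44 (1.04 to 1.86), with 58.4% of their P17 reads from Hist2h4. Each of these groups keeps most reads of its full group, so they cannot tell histone type from position, which was not tested. The runs were set with values of these genes known.

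The other 3 runs had few reads. The run from Hist1h2ah to Hist1h2bj (5 members) had 14 and 50 reads, at 0.85 (-0.03 to 1.82). The run from Hist1h3c to Hist1h3a (7 members) had 16 and 41 reads, at 0.37 (-0.49 to 1.30). The last run holds only the testis-specific pair: Hist1h2aa, which encodes the variant known as TH2A, had 4 and 19 reads, and Hist1h2ba, which encodes TH2B, had 3 and 12. Together they stood at 1.16 (-0.05 to 2.59), an interval that includes a ratio of 1 and lies just above the all-gene median of -0.08. TMM or median-of-ratios scaling, which adds 0.08 to the log2 ratio of a sum, moves its lower end past 0.

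The genes lying between the Hist1 members gave a local comparison. The 52 non-histone genes counted there, most of them vomeronasal receptor (Vmn1r) genes, summed to 3654 and 7829 reads, a log2 ratio of 0.11 (0.06 to 0.17), and the 16 that are not Vmn1r genes stood at 0.14 (0.08 to 0.20). Prss16 alone, with 977 and 2532 reads at 0.39 (0.28 to 0.50), held 32.3% of the P17 reads of the 52. Of 43 past the minimum, 0 stood over 2-fold higher and 1, Vmn1r211, was over 2-fold lower, with 15 and 13 reads at -1.12. The shares over all genes were 2.57% and 0.335%, so these counts are near them. The median of the 43 was -0.08. Vmn1r197 stood highest, with 3 and 18 reads at 1.41 (-0.18 to 4.0), and then Btn1a1, the butyrophilin gene known from milk fat, with 235 and 854 reads at 0.87 (0.67 to 1.09). Vmn1r212 stood lowest, with 13 and 11 reads at -1.14 (-2.53 to 0.05).

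**Figure D4:**
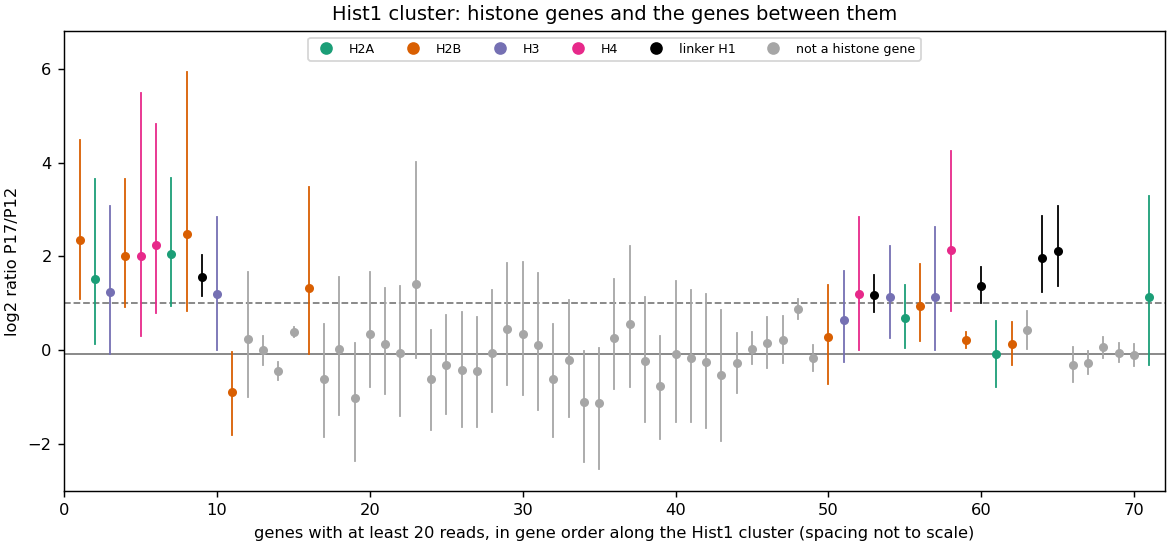
Log2 ratio P17/P12 (y) of genes with at least 20 reads in their order along the Hist1 cluster (x, spacing not to scale); points are ratios, bars exact 95% counting intervals, colours the histone type, black linker H1 and grey other genes, the solid line the all-gene median of -0.08 and the dashed line 2-fold higher. The histone genes at the left end, except Hist1h2bp at -0.89, stand above the all-gene median, while the grey genes lie on both sides of it.

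Head-to-head H2A and H2B genes share the DNA between their starts, and 8 such pairs were found among members with a RefSeq promoter sequence. Strand was taken from those sequences, so a pair that includes Hist1h2bc, Hist2h2be or Hist3h2bb-ps could not be found. The pair Hist1h2ak and Hist1h2bn had 8 and 81 reads together, a log2 ratio of 2.35 (1.31 to 3.61), and both genes were high. The pair Hist1h2ai and Hist1h2bl had 8 and 71 reads, at 2.16 (1.11 to 3.43), again with both genes over 2-fold higher. The pair Hist1h2an and Hist1h2bp, in the same run, had 24 and 28 reads, at -0.76 (-1.60 to 0.09), an interval below those of both other pairs; nearly all of its reads were from Hist1h2bp, as Hist1h2an had 1 and 4. All 3 stretches, printed above, hold CCAAT, and none holds ATTTGCAT. The pair Hist1h2ae and Hist1h2bg, in the longest run, had 43 and 149 reads, at 0.81 (0.31 to 1.33). The pair Hist1h2ah and Hist1h2bk had 5 and 34 reads, at 1.78 (0.42 to 3.49). In 3 of the 8 pairs both genes had at least 20 reads, and there the log2 ratio of H2A minus that of H2B was -0.85, -0.43 and -0.27, within the counting intervals of the genes. In the other pairs, with fewer reads, this difference was positive, from 0.26 to 1.58, so the sign was not shared by all pairs.

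RefSeq promoter sequences were found for 49 of the 55 genes. They were missing for Hist1h2bc, Hist1h3a, Hist1h3f, Hist2h2be, Hist2h4 and Hist3h2bb-ps. Motif and CpG values therefore do not cover Hist2h4, the H4 gene with the most reads, or Hist2h2be and Hist1h2bc, next in H2B reads after Hist1h2be. In the 250 bases before the start, on either strand, CCAAT was held by 14 of 14 H2A, 14 of 14 H2B, 8 of 10 H3 and 3 of 11 H4 genes, against 37.5% of 27025 genes. ATTTGCAT was held by 7 of 14 H2A and 7 of 14 H2B genes and by 0 of the H3 and H4 genes, against 1.81%. TATAAA was held by 7 of 14 H2A, 8 of 14 H2B, 4 of 10 H3 and 5 of 11 H4 genes, against 14.3%. GGTCCG was held by 8 of 11 H4 genes, 1 H3, 1 H2B and 0 H2A genes, against 7.69%. It was chosen after these sequences had been seen, so its excess over that share is no support. H2A and H2B windows overlap in the head-to-head pairs, so their counts are not separate. Within H4, GGTCCG is held by Hist1h4d, Hist1h4j and Hist1h4k and also by Hist1h4f, at 1.20, and Hist4h4, at 0.61. Genes under the minimum hold it too: Hist1h4i with 7 and 12 reads, Hist1h4c with 1 and 1, and Hist1h4m with 0 and 0.

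Promoter CpG content was set beside the ratios because Polycomb marks are known to gather at CpG-rich promoters. Observed over expected CpG in the 300-base RefSeq window had a median of 0.726 over 49 members, from 0.253 to 1.12, and 0.638 over 17042 genes past the read minimum; GC content was 44.0% against 57.7%. With a CpG ratio of 0.7 or more, 7 of 14 members past the minimum were over 2-fold higher at P17, against 2.21% of genes in that range. From 0.4 to under 0.7, 4 of 14 were, against 4.07%, and under 0.4, 1 of 1, Hist1h2bn, against 1.87%. Across these 29 members, CpG ratio and log2 ratio had a Pearson r of -0.29 and a Spearman rho of -0.23, given as a description, since the genes share both libraries and some share promoter DNA. Some of the 29 also reached the read minimum through P17 alone, so the counts and correlations in this paragraph are a description and no support.

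Among 10 linker histone H1 genes past the read minimum, 5 stood over 2-fold higher, against 2.57% of all genes. These 5, Hist1h1a to Hist1h1e, are replication-dependent and lie in the Hist1 cluster. Hist1h1a stood highest, with 14 and 124 reads at 2.11 (1.36 to 3.07), and the spermatid gene Hils1 lowest, with 22 and 39 reads at -0.15 (-0.95 to 0.66). The testis variant Hist1h1t had 8 and 11 reads. Of 9 replacement variant genes, which are expressed outside S phase, 0 were over 2-fold higher. Intervals of 2, H2afy2 and Cenpa, lay above the all-gene median and of 0 below it (21.2% and 10.1% of all genes). In 9 genes these counts are near the all-gene shares. Their median was -0.11, from H3f3a at -0.36 (99 and 152 reads) to the macroH2A gene H2afy2 at 0.57 (600 and 1767 reads).

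Genes that serve histone supply had medians close to that of all genes. Of all genes, 2.57% were over 2-fold higher and 0.335% lower, so 0 in lists as short as these is near that share. Intervals of 21.2% of all genes lay above the all-gene median and of 10.1% below it. Of 21 genes for histone mRNA transcription and processing, 0 were over 2-fold higher or lower, with a median of -0.07, and intervals of 0 lay above the all-gene median and of 2 below it. Npat, the coactivator of histone genes, had 278 and 517 reads at -0.09, and Slbp, the stem-loop binding protein, had 92 and 177 at -0.04; these were named after their values were seen. The list ran from Wdr33 at -0.34 to Cstf2t at 0.33. The 18 histone chaperone genes had a median of -0.17, from Supt6 at -0.38 to Daxx at 0.36, with 0 over 2-fold either way, 0 intervals above the all-gene median and 4 below. The 26 S-phase replication genes had a median of -0.13, from Mcm4 at -0.51 to the thymidine kinase gene Tk1 at 0.86 (113 and 408 reads), also with 0 over 2-fold, 5 intervals above the all-gene median and 3 below. No test set these lists against the histone genes.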

How the data were processed

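H3K27me3 was measured by chromatin immunoprecipitation and sequencing. The deposited files hold the authors' raw read counts for each gene body, by symbol. Bowtie, SAMtools, HTSeq and mm9 are named in the submitters' processing notes, with no role or version. How reads matching several copies were handled is not given in the sources used here. Groups follow the sample titles. The peak lists, the other antibodies and input were not used here.

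Counts were scaled to the file total. The log2 ratio P17/P12 of a gene used a pseudocount of 1 read at the mean library size (sums used none), and genes needed at least 20 reads over both files. Intervals are exact conditional (Clopper-Pearson) 95% intervals. With 1 file per stage no test was run. Ratios and intervals were tested on simulated counts without replicate variation, with changes placed only in genes with at least 100 reads. Most members have fewer reads, so recovery of a change was not checked in their range. Gene names, gene order and promoters came from RefSeq tables of GRCm38.p6.

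Members and lists were chosen with earlier results of these data known. The naming rule took, per type, the 2 highest and 2 lowest ratios and the most P17 reads, every Hist2, Hist3 and Hist4 gene, Hist1h2aa and Hist1h2ba; per list, the highest and lowest ratio; and 2 of each among genes between Hist1 members. Other names were added after their values were seen. Alternatives were TMM factors (edgeR 4.0.16, R 4.3.3), median-of-ratios factors, a total without repeated symbols and the 13 entries with the most P12 reads, minima of 1, 50 and 100 reads, pseudocounts of 0.5 and 5, leaving out members and, added after seeing the data, at least 10 reads at P12 and adding the repeated symbols. Python 3.11.15, numpy 2.4.6, pandas 2.3.3 and scipy 1.17.1 were used.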

Additional observations from a re-analysis of the deposited data

How the results depend on the processing

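The median log2 ratio of 1.14 over 33 genes was 0.58 with at least 100 reads (6 genes) and 0.49 with at least 10 reads at P12 (17 genes), and between 0.79 and 1.21 under the other alternatives run. The 13 genes over 2-fold higher became 7 with at least 50 reads, 2 with at least 100 reads and 3 with at least 10 reads at P12 (chosen after seeing the data). These minima leave 17, 6 and 17 genes, and the last also leaves out genes that were low at P12. The count was 17 with TMM or median-of-ratios factors, which raised the ratios of sums by 0.08, and 11 with a pseudocount of 5. Leaving out the member with the most reads gave 0.64 for H2B, 0.83 for Hist1, 1.11 for Hist2 and, with the opposite sign, -0.63 for Hist3. Of 140 alternative values of named genes, 0 left their counting interval. This says little, since the scalings moved ratios by at most 0.08. The pseudocounts mostly moved genes with few reads, whose intervals are wide. The interval of Hist1h2bp, under a ratio of 1 as reported, included it with TMM and median-of-ratios factors (upper ends 0.04 and 0.04). No paired analysis was possible because each stage has 1 file and the P17 replicates are pooled, so no replicate could be left out. Depth limits single genes: the median member had 5 reads at P12.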
